A study of Arabidopsis thaliana with 9 samples.

Results

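The baseline transcriptome of WT *Arabidopsis thaliana* (Col-0) was described from 3 mRNA-seq libraries, which are the libraries labelled with genotype WT among the 9 of the series. The series was built around *zmp* T-DNA mutants, whose libraries were not used here. The plants carried no T-DNA insertion or transgene, no treatment is named in the labels, and growth was under long days. The labels give the material as whole seedlings at 12 days, as does another passage of the study, whereas its mRNA-seq methods name inflorescences, so that markers of both were read. How many plants went into each library, and at which hour they were harvested, is not given in the sources used here. The spread between the 3 libraries may therefore hold technical as well as biological differences.

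Genes of photosynthesis are prominent in the nuclear transcriptome of a green seedling. Light-harvesting proteins encoded in the nucleus are imported into the chloroplast and bind chlorophyll around photosystem I and photosystem II, while the small subunit of Rubisco joins a large subunit made inside the chloroplast. Around this core, seedlings hold transcripts of root, vascular, epidermal and meristem cells, and sets of genes that respond within minutes to hours to light, time of day, wounding, nutrient supply and stress.

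Reads counted per gene totalled 10739822 in WT library 1, 14561647 in library 2 and 8849896 in library 3. Nuclear genes held 36.3%, 36.5% and 42.7% of these counts, chloroplast genes held 62.0%, 62.1% and 55.1%, and mitochondrial genes held 1.61%, 1.47% and 2.16%. Organelle counts were thus lower in share in library 3 for the chloroplast and higher for the mitochondrion. Within the chloroplast, the gene listed as ATCG00020 alone took 60.9%, 54.6% and 59.3% of the counts and ATCG00490 took 13.7%, 11.1% and 12.1%. Within the mitochondrion, ATMG00020 took 56.7%, 54.0% and 60.2%. These identifiers are not named by the annotation used here, and nuclear levels below were scaled within nuclear genes alone.

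Levels are given as nuclear RPM, the count of a gene per 1000000 counts of nuclear genes in that library. Levels of different genes were compared as nuclear RPM per kb of annotated exon. Ranks and shares in nuclear RPM describe how the counts were divided between genes, which also depends on gene length. Of 37051 nuclear genes, 18169 had at least 3 counts in each of the libraries and 13407 had none in any. The floor was set at 3 counts, or 0.769, 0.565 and 0.794 nuclear RPM in libraries 1, 2 and 3. This floor covers counting error only. Of the nuclear genes, 9110 (24.6%) overlap an annotated gene on the opposite strand, and the strand that was counted is not given in the sources used here. Reads of such partners cannot be told apart, which applies to *CAB1*, *PSBR*, *LHCA4*, *RCA*, *PYK10*, *ABCB4*, *FER1*, *FRO3*, *BHLH101*, *bHLH38*, *HSP101*, *MBF1C*, *TUA2* and AT5G60390 among the genes named below.

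A small set of genes held a large part of the nuclear counts. Only 70 genes had a mean above 1000 nuclear RPM, and they held 18.0% of the counts, whereas the 10371 genes between 10 and 100 nuclear RPM held 36.7%. The 100 highest genes held 23.2%, 18.8% and 20.3% (20.8% ± 2.3, SD, n = 3). The number of genes needed to reach 50% of the nuclear counts was 989, 1253 and 1086. By this number the counts of library 2 were spread over the most genes, also when rRNA was left out (1119, 1324 and 1207 genes). The 10 highest genes without rRNA held 5.74%, 4.63% and 4.55%, and by that share library 3 was lowest.

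Protein-coding genes held 94.7% ± 1.6 (SD, n = 3) of the nuclear counts, and 17637 of 27431 of them reached 3 counts in each library. By the words of their annotated products, genes of the photosystems and their antenna formed the largest named class, with 9.49%, 8.18% and 7.59% of the nuclear counts from 127 genes, or 0.343% of the nuclear genes. Kinases and phosphatases held 5.72% ± 0.55 from 1667 genes, ubiquitin and proteasome genes held 4.19% ± 0.17, and transporters and aquaporins held 3.61% ± 0.08. Transcription factors held 3.35% ± 0.31, ribosomal proteins 3.32% ± 0.34, and enzymes of carbon fixation and photorespiration 3.12% ± 0.31. Protein-coding genes in none of the classes held 49.9% ± 1.6. As the classes rest on words in product names and on lists of identifiers, a class can hold genes that its name does not describe. The shares are those of the matched genes.

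**Figure D1:**
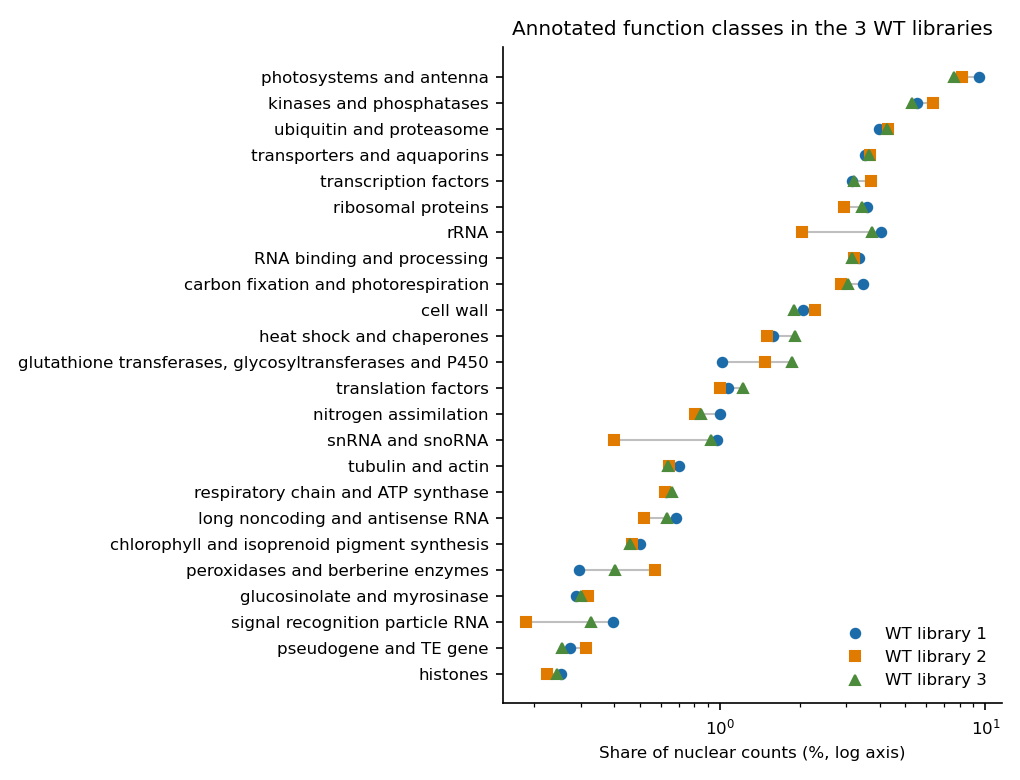
Share of nuclear counts (percent, log axis) of each annotated function class, with a point for each WT library and a line over their range. Photosystem and antenna genes lie highest, at 7.59% to 9.49%, and the classes rRNA, snRNA and snoRNA, and signal recognition particle RNA lie lowest in library 2.

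Genes for structural RNA stood out by a common order of the libraries. rRNA genes held 4.05%, 2.04% and 3.73% of the nuclear counts, and snRNA and snoRNA genes held 0.978%, 0.399% and 0.928%. Both classes were lowest in library 2. Nearly all of the rRNA came from AT3G41768, an 18S rRNA gene (chr3:14197677-14199484), at 40011, 20205 and 37054 nuclear RPM. The other 18S rRNA gene, AT2G01010, is nearly identical to it and stood at 84.3, 50.9 and 55.3 nuclear RPM, so that the division of reads between these copies is uncertain. AT7SL-1, the RNA of the signal recognition particle that directs ribosomes to the endoplasmic reticulum, stood at 3952, 1866 and 3277 nuclear RPM. U1.5, annotated as a spliceosomal snRNA with several near-identical copies, stood at 3552, 799 and 3384 nuclear RPM. Together with AT7SL-1, these RNA classes held 5.42%, 2.63% and 4.99%. The labels give the RNA as polyA RNA, and only reads with a unique place were counted. These shares therefore measure uniquely placed reads, and not the RNA content of the libraries or of the cells.

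Among protein-coding genes, the antenna led on both scales. *CAB1* (AT1G29930, a single exon at chr1:10477885-10479114, plus strand), which encodes a chlorophyll a/b-binding protein of the photosystem II antenna, was the highest protein-coding gene at 15019, 14591 and 13135 nuclear RPM and 11584 ± 803 nuclear RPM per kb of exon (SD, n = 3). Its level differed little between libraries, with a highest-over-lowest ratio of 1.14. *PSBR*, a subunit of photosystem II, followed at 6863 ± 1821 nuclear RPM per kb of exon, with 7029, 4567 and 4546 nuclear RPM. The means of *CAB1* and *PSBR* per kb lay further apart than the SD of either.

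Next in level per kb of exon came *LHCA4* at 3428 ± 454 and *LHCA1* at 3182 ± 452, antenna proteins of photosystem I, which did not differ beyond their spread. *LHCB5* at 2628 ± 476, *CAB3* at 2460 ± 282 and *PSBO1* at 2395 ± 367 nuclear RPM per kb also lay within each other's SD. *PSBO1* encodes the protein that stabilises the manganese cluster where water is split. Of the 20 antenna genes listed, 19 reached 3 counts in each library. The exception, *LHB1B2* (AT2G34420), had no count in any library. Its neighbour *LHB1B1*, which matches 76.6% of *LHB1B2* at 91.6% identity, stood at 2920, 1279 and 1732 nuclear RPM. Whether shared sequence left *LHB1B2* without counts was not tested. Only reads with a unique place were counted, so the levels of *LHB1B1* and *LHB1B2*, and of *CAB1*, *CAB2* and *CAB3*, are uncertain singly.

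All 11 listed nuclear genes of photosystem II and all 12 of photosystem I reached 3 counts in each library. *PSAL*, a photosystem I subunit, was nearly level at 1714, 1765 and 1695 nuclear RPM. *PSAD-1*, which docks ferredoxin on the stromal side, stood at 614, 217 and 562 nuclear RPM and was lowest in library 2.

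Carbon fixation was measured in all 14 listed genes and photorespiration in all 10. *RCA*, the activase that frees Rubisco of inhibitory sugars, stood at 3469, 2288 and 3314 nuclear RPM. *RBCS1A* (chr1:25048158-25049667), the main gene of the Rubisco small subunit, stood at 3406, 1122 and 3971 nuclear RPM, a 3.54-fold range. The other small-subunit gene with a wide range, *RBCS1B*, stood at 155, 39.0 and 123 nuclear RPM. Both were lowest in library 2, whereas *RBCS3B* spanned 1310 to 2032 and *GAPA*, a subunit of the chloroplast glyceraldehyde-3-phosphate dehydrogenase, spanned 838 to 1076. *SHM1*, the mitochondrial serine hydroxymethyltransferase of photorespiration, stood at 1913, 2103 and 1326 nuclear RPM. *CAT2*, a catalase that removes the hydrogen peroxide made in photorespiration, stood at 196, 117 and 416 nuclear RPM and was highest in library 3.

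Outside the listed photosynthesis genes, the 20 genes with the highest mean nuclear RPM included *THI1*, which makes the thiazole ring of thiamine, at 3471, 2113 and 2995. They also included *NIA2*, the main nitrate reductase, at 2725, 2312 and 3339, and *GRP7*, an RNA-binding protein with a daily rhythm, at 3197, 2202 and 2416. *CLPC1*, a chaperone of protein turnover in the chloroplast, stood at 2965, 2586 and 2491, and *HSC70-1*, a constitutive cytosolic chaperone, at 2646, 1779 and 3381. *DRT112*, a copper protein of the cupredoxin superfamily, spanned 2129 to 2828. Per kb of exon, short RNAs ranked beside these genes: the snoRNA gene AT2G04965 stood at 9575 ± 3912 and the lncRNA gene AT4G04565 at 4972 ± 709. The second snoRNA among the 20 highest per kb, AT5G07095, stood at 679, 57.6 and 493 nuclear RPM. It was lowest in library 2, as were all 31 of the snoRNA genes that varied at least 2-fold. These 31 were among 45 with at least 10 counts in each library. Under TMM scaling, 31 of 32 were lowest in library 2. Of all nuclear genes with that minimum, 17.3% varied at least 2-fold, and 780 of these 2736 were lowest in library 2.

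The labelled tissue was read against lists of marker genes for leaf, root, shoot apex, vasculature, epidermis, flower, pollen and seed. A list is described by how many of its members reached 3 counts in each library and by its summed level. Of all protein-coding nuclear genes, 64.3% reached 3 counts in each library. In RNA from whole organs, fewer cells of a type and less RNA per cell cannot be told apart. Photosynthesis lists were complete or lacked only *LHB1B2*, and the antenna list alone summed to 53264, 46604 and 43877 nuclear RPM.

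**Figure D2:**
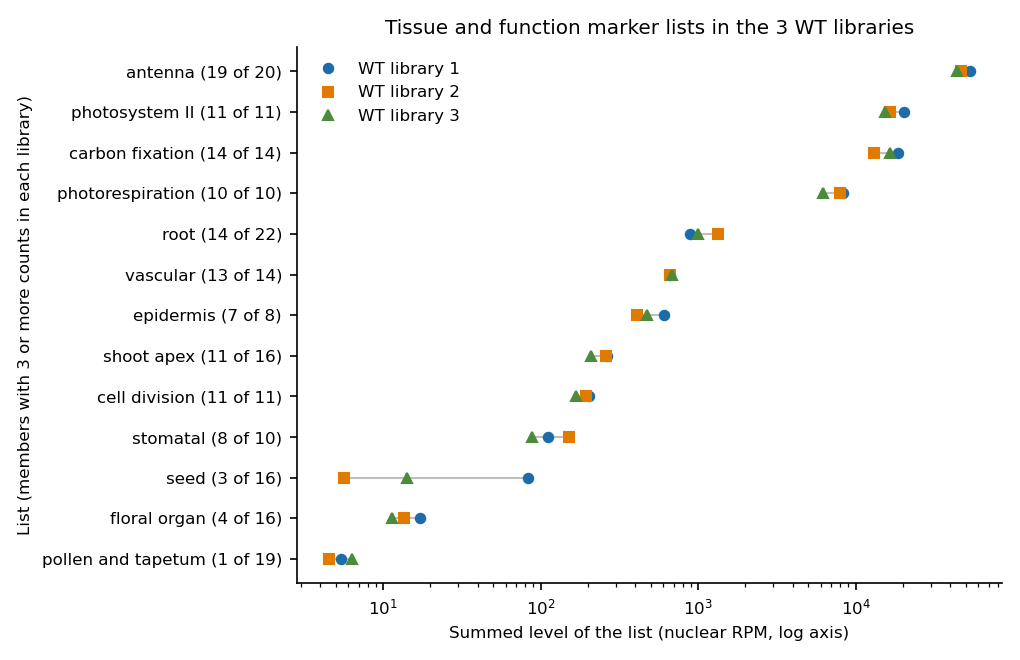
Summed nuclear RPM (log axis) of each marker list in the WT libraries, with the number of members that had at least 3 counts in each library beside its name. The photosynthesis lists lie highest, the root list at 893 to 1335, the floral organ list at 11.4 to 17.2, and the seed list from 5.65 in library 2 to 83.8 in library 1.

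Vascular, epidermal, stomatal and dividing-cell markers were present in each library. The vascular list reached 13 of 14 members and was nearly level at 662, 669 and 684 nuclear RPM. *SWEET11*, which exports sucrose from phloem parenchyma, stood at 164, 175 and 172 nuclear RPM. *SUC2*, which loads sucrose into companion cells, varied more, at 103, 54.8 and 122. In the epidermis list (7 of 8), *ATML1*, a regulator of epidermal identity, stood at 137, 143 and 104 nuclear RPM. *FMA*, which sets guard cell identity at the end of the stomatal lineage, stood at 49.7, 70.3 and 37.3, and *MUTE*, which acts earlier and briefly in that lineage, had 3, 2 and 3 counts. All 11 cell division genes were measured, with sums of 203, 196 and 169 nuclear RPM.

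The shoot apex list reached 11 of 16 members. Genes of leaf primordia such as *AS1* were measured at 61.5, 46.0 and 48.7 nuclear RPM, and *STM*, a homeobox gene of the meristem, had 18, 17 and 13 counts. *WUS* and *CLV3*, which are made in a few cells of the meristem centre, had no count in any library. Their absence is not shown by this, since a count of 0 allows levels up to the floor.

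The root list reached 14 of 22 members, close to the 64.3% of all protein-coding genes. Its median member stood at 0.897, 4.33 and 1.45 nuclear RPM. Most of its sum came from *PYK10*, a myrosinase-type beta-glucosidase of endoplasmic reticulum bodies, at 823, 1198 and 922 nuclear RPM. Of the 6 root genes with at least 10 counts in each library, 0 ranged 2-fold, and their median ratio of library 2 over library 1 was 0.21 on the log2 scale. Several markers of single root cell layers fell below that minimum and had most counts in library 2. *CASP1*, which marks the Casparian strip domain of the endodermis, had 2, 48 and 3 counts, *CASP2* had 3, 46 and 3, and *TIP2;3*, a root aquaporin, had 5, 73 and 14. *EXPA7*, an expansin of root hair cells, had 3, 31 and 5 counts, and *MYB36*, which directs endodermal differentiation, had 6, 29 and 10. Scaled to depth, *CASP1* stood at 0.51, 9.04 and 0.79 nuclear RPM and *TIP2;3* at 1.28, 13.8 and 3.70, so that library 2 was highest beyond its greater depth. *PLT1*, *PLT2* and *WOX5*, of the root tip, had 6 or fewer counts in any library, and *NRT2:1*, a high-affinity nitrate transporter, had none.

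Of 35 floral, pollen and tapetum genes, 5 reached 3 counts in each library. Among floral organ identity genes, *AG*, which defines stamens and carpels, had no count in any library, and neither had *UFO*, *SHP2*, *CRC*, *SPL* or *INO*. A count of 0 allows up to 0.769, 0.565 and 0.794 nuclear RPM in libraries 1, 2 and 3. *AP1* had 1, 0 and 0 counts, *AP3* had 0, 2 and 2, and *PI* had 4, 5 and 5. *SEP4*, a MADS-box gene known from flower meristems but also from leaves, led the list with 27, 39 and 18 counts. *SEP3* had 25, 14 and 6 counts and *LFY* had 3, 0 and 4. Of the 19 pollen and tapetum genes, 11 had no count in any library, and *LAP6*, an enzyme of pollen wall synthesis, was the only member to reach 3 counts in each, with 15, 8 and 14. The defining genes of stamens, carpels and tapetum were at or near 0 in all 3 libraries, while photosynthesis lists were complete or nearly so. The label seedling was therefore kept here for the tissue. The root list was not used for this, as its share of members detected was close to that of all protein-coding genes.

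Seed storage genes separated library 1 from the other libraries. *CRA1*, a cruciferin of the 12S globulins, had 202, 10 and 36 counts, which equal 51.8, 1.9 and 9.5 nuclear RPM. *CRU3*, another cruciferin, had 90, 13 and 7 counts, and *GEA6*, a late embryogenesis protein, had 13, 0 and 1. Library 1 was highest for each of them, and without it the mean of the list fell from 34.6 to 9.97 nuclear RPM. The albumin genes *SESA1* to *SESA5* and the embryo regulators *LEC1*, *LEC2* and *FUS3* had no count in any library. The promoter of *CRA1* is shown because it holds the RY element CATGCA, in capitals, which seed regulators of the B3 family bind, at 2 places before the annotated start. The window runs from 250 bases before to 50 bases after the start on TAIR10.1, as do those below.
*CRA1*, chr5:17758287-17758586, minus strand: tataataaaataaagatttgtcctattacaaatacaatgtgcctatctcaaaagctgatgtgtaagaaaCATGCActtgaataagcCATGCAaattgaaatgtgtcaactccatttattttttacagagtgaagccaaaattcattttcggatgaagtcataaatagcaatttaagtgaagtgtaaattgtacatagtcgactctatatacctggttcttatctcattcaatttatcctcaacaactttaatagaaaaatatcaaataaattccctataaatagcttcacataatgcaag
CATGCA, searched on both strands, was found in the promoters of 11 of 16 seed genes and in 9.72% of 27430 promoters of protein-coding genes.

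Senescence markers were mixed. *SAG12*, a cysteine protease made late in leaf senescence, had 0, 0 and 1 counts. *SEN1*, which also responds to darkness, stood at 675, 888 and 449 nuclear RPM. *SAG13* stood at 3.1, 13.0 and 60.6 nuclear RPM and was highest in library 3. Among genes of darkness and sugar, *ASN1*, an asparagine synthetase raised in the dark, stood at 743, 822 and 545 nuclear RPM, and *DIN10*, of the raffinose synthase family, at 1595, 1550 and 896. Both were lowest in library 3. *GPT2*, a plastid glucose-6-phosphate translocator raised by sugar, had 9, 6 and 83 counts.

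Clock genes were read as an evening list and a morning list. *TOC1*, an evening repressor of the clock (chr5:24674963-24678550), stood at 308, 307 and 269 nuclear RPM, and *GI*, an evening gene that links the clock to flowering time, at 139, 134 and 163. All 9 evening genes were measured in each library with at least 10 counts. Per kb of exon, the evening genes were lowest in *BOA* and highest in *TOC1*, at 105 ± 7.95 nuclear RPM. On that scale *CCA1*, a morning repressor of *TOC1*, stood at 6.67 ± 5.44, within its spread of *BOA*, and *PRR7* at 63.7. *CCA1* stood at 4.9, 15.4 and 34.1 nuclear RPM, *LHY* at 2.8, 3.0 and 8.5, and *PRR9* at 1.8, 4.7 and 14.3. *PRR7*, whose peak comes later in the morning, stood at 174, 265 and 179. *CCA1*, *LHY* and *PRR9* were lowest in library 1 and highest in library 3, while the evening genes varied less, with *BOA* at 36.9, 23.2 and 14.5 the widest. The *TOC1* promoter is shown with its evening element AAAATATCT, a site of *CCA1* binding, which lies on the other strand and reads AGATATTTT in the capitals printed.
*TOC1*, chr5:24674713-24675012, plus strand: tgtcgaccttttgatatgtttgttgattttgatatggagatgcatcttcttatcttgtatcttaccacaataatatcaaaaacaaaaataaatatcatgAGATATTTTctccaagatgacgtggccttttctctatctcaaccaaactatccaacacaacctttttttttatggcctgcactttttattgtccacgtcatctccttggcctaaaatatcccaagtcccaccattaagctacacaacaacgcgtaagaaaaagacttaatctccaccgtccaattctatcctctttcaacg
The element was found in 5 of the 9 evening gene promoters and in 2.82% of all promoters searched.

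The spread between the libraries was then described over the 15771 nuclear genes with at least 10 counts in each library. The highest library exceeded the lowest at least 2-fold for 2736 genes (17.3%) and at least 4-fold for 399 (2.53%), and the median gene ranged over 0.56 on the log2 scale. Among 6671 genes with at least 100 counts in each library, 548 (8.21%) ranged at least 2-fold. The common biological coefficient of variation, the spread beyond counting noise estimated by edgeR, was 27.1%, and it was 22.7% among genes with at least 100 counts. Across these genes, which are not independent replicates, Pearson's r of log2 levels was 0.94 between libraries 1 and 2, 0.94 between 1 and 3, and 0.93 between 2 and 3. The variance over the libraries was 20.7 times that of counting noise over all these genes (chi-square per degree of freedom) and 4.08 times for the median gene, and no pair of libraries held identical counts.

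No library was the odd one for all of the genes that varied. Library 1 stood at least 2-fold above both other libraries for 48 genes (0.304%), library 2 for 351 (2.23%) and library 3 for 359 (2.28%). Library 1 stood at least 2-fold below both others for 297 genes (1.88%), library 2 for 195 (1.24%) and library 3 for 134 (0.85%). Of the genes that ranged at least 2-fold, 490 were highest in library 1, 1231 in library 2 and 1015 in library 3, while 1124 were lowest in library 1, 780 in library 2 and 832 in library 3. The balance depended on the scaling. Library 3 was at least 2-fold above library 2 for 777 genes and below it for 893, which is 46.5% above, and 62.8% were above after TMM scaling, 63.1% with DESeq2 size factors and 73.9% by the total of the whole library. Under the nuclear total, the median gene lay 0.13 lower in library 3 than in library 2 on the log2 scale.

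**Figure D3:**
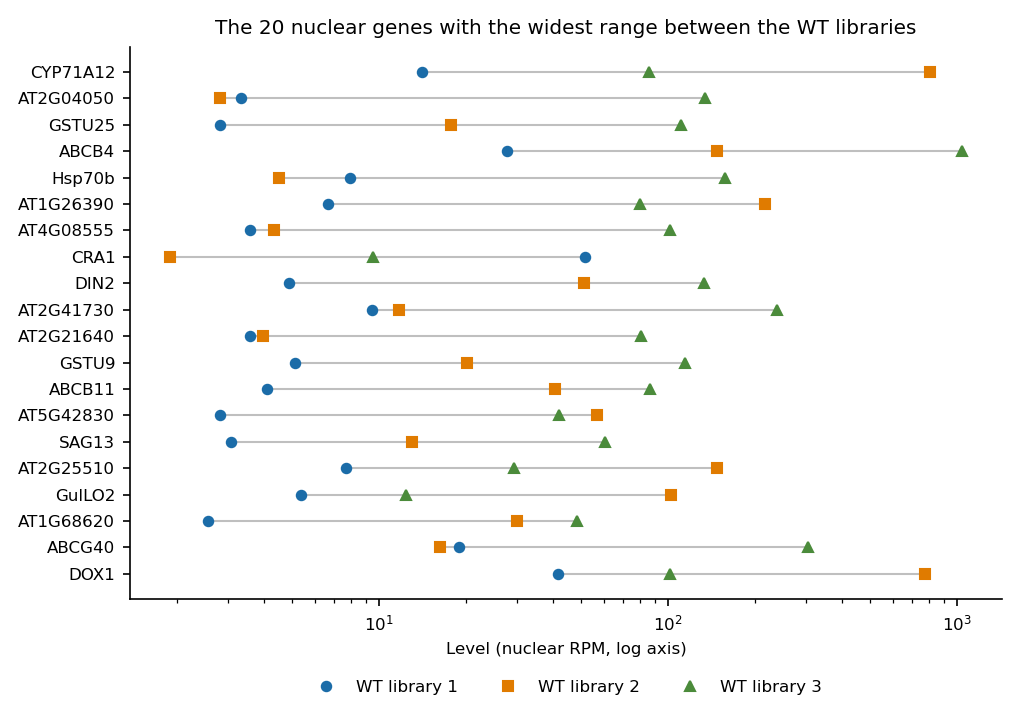
Nuclear RPM (log axis) in each WT library of the 20 genes with the widest range among those with a mean of at least 20 nuclear RPM and at least 10 counts in each library. *CYP71A12* ranges from 14.1 to 805, and library 1 or 2 is lowest for every gene shown.

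The 20 genes with the widest range were chosen by these values, so their ranges are a description. *CYP71A12* (AT2G30750, chr2:13099486-13101371), a cytochrome P450 that acts on indole-3-acetaldoxime on the way to defence compounds, stood at 14.1, 805 and 86.0 nuclear RPM, a 57.1-fold range. It was highest in library 2, as were *DOX1*, an alpha-dioxygenase of fatty acids, at 41.8, 775 and 102, and AT1G26390, a berberine-bridge-type oxidase, at 6.7, 217 and 80.2. *CYP71A12* has close copies, so its level is uncertain singly.

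Most of the other genes were highest in library 3. *ABCB4*, an auxin transporter (chr2:19309643-19315343), stood at 27.7, 148 and 1044 nuclear RPM. *GSTU25*, a tau-class glutathione transferase, stood at 2.8, 17.7 and 111, and *Hsp70b*, a heat-inducible chaperone, at 7.9, 4.5 and 157. *ABCG40*, an importer of abscisic acid, stood at 19.0, 16.2 and 306, and *DIN2*, a beta-glucosidase gene first found as induced by darkness, at 4.9, 51.0 and 133. *CRA1* was the only gene of the 20 that was highest in library 1. Of these 20 genes, 17 to 20 stayed among the 20 widest under the other scalings tried, and all of the 20 kept the same highest library. The genes were chosen for wide ranges and the scalings differ little, so a change of the highest library was unlikely from the start.

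Gene families described the same spread by function, beside the 17.3% of all genes. At least 2-fold ranges were found in 17 of 33 glutathione transferases, 27 of 79 UDP-glycosyltransferases and 34 of 98 cytochrome P450s, enzymes that modify and conjugate small molecules. They were found in 14 of 30 MATE transporters and in 11 of 15 berberine-bridge-type enzymes. The library with the highest level differed between families. Of the UDP-glycosyltransferases that varied, 22 were highest in library 3, as were 13 of the MATE transporters and 18 of the 24 heat shock proteins that varied among 103. Library 2 was highest for 16 of the 18 class III peroxidases that varied among 27, for 22 of the P450s and for 12 of the 16 WRKY transcription factors that varied among 34. For P450s this fell to 19 under TMM scaling and 18 by the whole-library total, and for WRKY factors to 9 and 8. In library 2 several root layer markers with low counts were higher as well, as given above, and their part in the peroxidase values was not tested.

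Of 13 tubulins, 0 ranged at least 2-fold. Such ranges were found in 3 of 14 expansins (21.4%), 7 of 43 histones (16.3%) and 4 of 21 aquaporins (19.0%). These shares lay near the 17.3% of all genes. Of 63 photosystem and antenna proteins, 7 (11.1%) ranged 2-fold, against 8.21% of all genes with at least 100 counts in each library. Of 330 ribosomal proteins, 47 (14.2%) did, of which 38 were lowest in library 2. Over all genes, 780 of 2736 were lowest there. By exon length, 24.5% of protein-coding genes with up to 800 bases and 9.59% of those above 4000 bases ranged at least 2-fold. The share of 2-fold ranges also fell with the counts per gene, as given above, and length was not separated from counting noise.

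**Figure D4:**
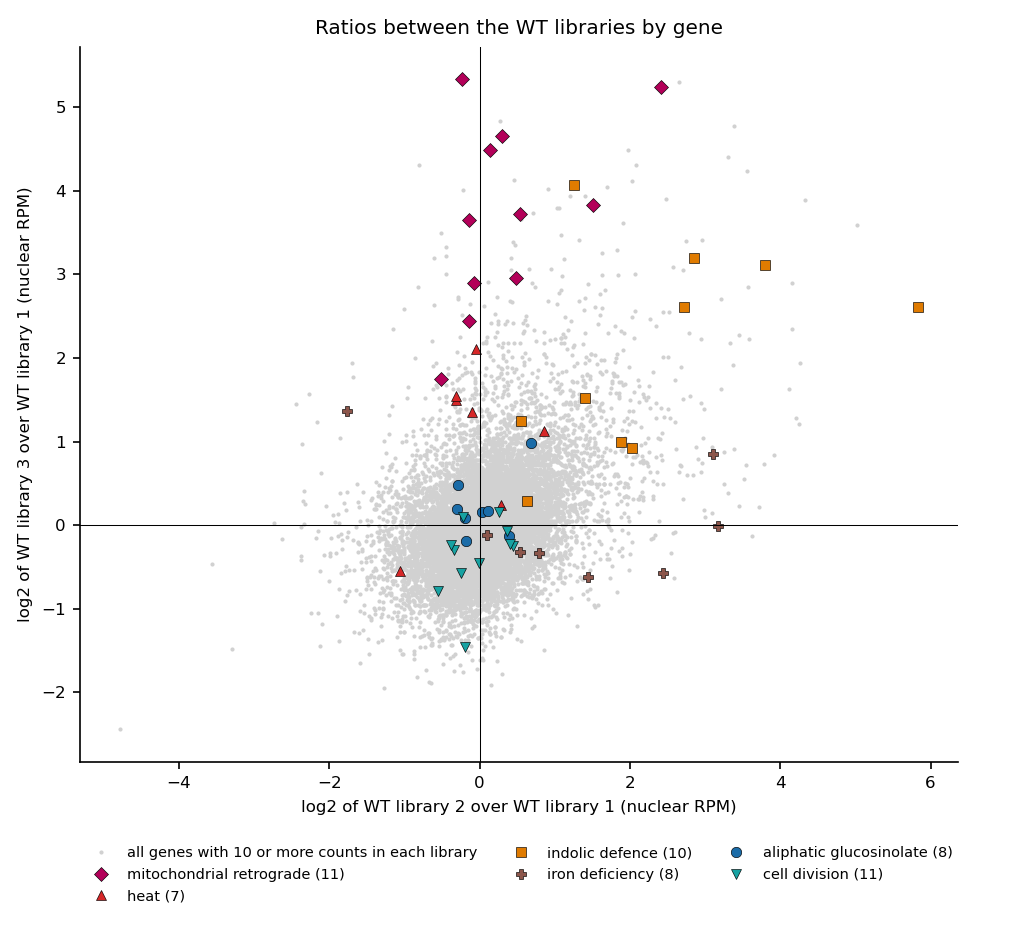
Log2 ratio of library 2 over library 1 (x axis) against that of library 3 over library 1 (y axis) in nuclear RPM for genes with at least 10 counts in each WT library, with 6 gene lists marked. The mitochondrial retrograde genes lie high on the y axis, the indolic defence genes to the right and above, the iron deficiency genes mostly to the right with *FER1* at the upper left, and the aliphatic glucosinolate genes around the centre. Both axes share library 1.

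A list of genes that answer mitochondrial dysfunction was assembled after the widest-ranging genes had been seen, and it holds *ABCB4* and 3 others of them, so its ranges are no independent support. When mitochondrial respiration is impaired, NAC transcription factors held at the endoplasmic reticulum are released and raise a nuclear set that includes *AOX1A*, the alternative oxidase that bypasses the cytochrome pathway. Of its 13 genes, 11 had at least 10 counts in each library. All 11 ranged at least 2-fold and were highest in library 3 under each scaling tried. *AOX1A* (chr3:7906521-7908746) stood at 61.5, 58.6 and 456 nuclear RPM, a 7.78-fold range. *UGT74E2*, which conjugates an auxin precursor, stood at 68.7, 62.3 and 859, and *NAC13*, a regulator of this set, at 21.0, 19.0 and 114. Libraries 1 and 2 lay close together for *AOX1A*, *UGT74E2* and *NAC13*, but not for *ABCB4*, as given above. *BCS1*, an ATPase of the outer mitochondrial membrane, stood at 11.02, 31.5 and 156 nuclear RPM, and AT2G21640, annotated as a marker of the oxidative stress response, at 3.6, 4.0 and 80.7. The mean of the list was 1645 nuclear RPM over the 3 libraries and 400 without library 3.

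The promoters of 4 of these genes are shown because they hold, in capitals, the motif which the NAC factors bind, CTTG and CAAG with any 5 bases between them. The motif was defined on genes of this set, so that its presence is no separate finding.
AT2G21640, chr2:9254128-9254427, plus strand: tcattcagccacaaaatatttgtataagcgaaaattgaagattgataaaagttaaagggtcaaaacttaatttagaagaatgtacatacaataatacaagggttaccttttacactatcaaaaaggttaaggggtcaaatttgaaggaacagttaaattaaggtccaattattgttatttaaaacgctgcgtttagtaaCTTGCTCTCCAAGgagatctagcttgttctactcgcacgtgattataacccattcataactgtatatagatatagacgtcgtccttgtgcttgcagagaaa
AT2G41730, chr2:17409120-17409419, plus strand: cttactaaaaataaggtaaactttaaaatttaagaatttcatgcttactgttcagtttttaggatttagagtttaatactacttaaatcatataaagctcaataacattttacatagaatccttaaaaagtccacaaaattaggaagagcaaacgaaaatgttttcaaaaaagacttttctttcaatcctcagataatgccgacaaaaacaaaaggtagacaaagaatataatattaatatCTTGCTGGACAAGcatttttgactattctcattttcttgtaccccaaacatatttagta
AT2G04050, chr2:1339419-1339718, minus strand: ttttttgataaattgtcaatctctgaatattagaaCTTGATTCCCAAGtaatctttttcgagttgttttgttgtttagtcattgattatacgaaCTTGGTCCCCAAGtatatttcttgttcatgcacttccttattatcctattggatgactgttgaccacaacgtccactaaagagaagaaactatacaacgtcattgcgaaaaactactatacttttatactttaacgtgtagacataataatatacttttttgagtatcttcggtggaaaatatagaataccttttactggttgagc
*AOX1A*, chr3:7906271-7906570, plus strand: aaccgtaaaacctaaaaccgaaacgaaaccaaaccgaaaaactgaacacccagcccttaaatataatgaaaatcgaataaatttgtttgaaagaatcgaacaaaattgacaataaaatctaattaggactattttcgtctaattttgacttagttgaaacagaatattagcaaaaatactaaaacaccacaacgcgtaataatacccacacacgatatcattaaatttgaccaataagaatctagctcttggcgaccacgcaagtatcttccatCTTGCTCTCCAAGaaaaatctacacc
AT2G41730, a gene annotated as a calcium-binding site protein, stood at 9.5, 11.7 and 239 nuclear RPM, and AT2G04050, a MATE efflux protein with a close copy, at 3.3, 2.8 and 134. The motif reads the same on both strands in its fixed letters and was found in 5 of the 13 promoters of the list, in 0.904% of all 27430 promoters and in 0.484% of those of genes that passed the count minimum. Counted from the annotated start, its first match begins at -51 in AT2G21640, -9 in AT2G41730, -215 in AT2G04050 and 24 in *AOX1A*.

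Heat shock genes were read as a further list. *HSP70* stood at 209, 167 and 608 nuclear RPM, *HSP90.1*, a chaperone of signalling proteins, at 121, 117 and 519, and *HSP101*, which dissolves protein aggregates, at 80.7, 65.2 and 227. Most reads of small heat shock proteins came from library 3. *HSP17.6A* had 2, 10 and 324 counts, *HSP17.6II* had 1, 3 and 99, and *HSP21*, of the chloroplast, had 0, 0 and 59. Of the 7 heat genes with at least 10 counts in each library, 6 ranged at least 2-fold and 5 of these were highest in library 3. The exception was *HSFA2*, the heat-induced transcription factor, at 23.57, 11.3 and 16.1 nuclear RPM, and *MBF1C*, a heat-induced co-activator, was nearly level at 52.0, 63.5 and 61.6. The mean of the list was 964 nuclear RPM over the 3 libraries and 554 without library 3. The *HSP21* promoter is shown with its GAANNTTC pairs in capitals, the unit bound by heat shock factors.
*HSP21*, chr4:13819922-13820221, minus strand: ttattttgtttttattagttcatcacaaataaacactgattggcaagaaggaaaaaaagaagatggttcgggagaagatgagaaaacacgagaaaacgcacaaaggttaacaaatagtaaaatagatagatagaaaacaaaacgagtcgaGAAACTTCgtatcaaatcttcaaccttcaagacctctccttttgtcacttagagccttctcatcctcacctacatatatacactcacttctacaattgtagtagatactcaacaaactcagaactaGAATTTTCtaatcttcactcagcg
GAANNTTC was found in 7 of 15 heat gene promoters and in 11.6% of all promoters, which makes it a frequent string.

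Indolic defence genes, another list chosen after the widest ranges were seen, were lowest in library 1. Tryptophan is turned by *CYP79B2* and *CYP79B3* into an oxime that feeds indolic glucosinolates, camalexin and cyanogenic indole compounds. *CYP79B2* stood at 48.2, 178 and 96.0 nuclear RPM, and *MYB51*, a regulator of indolic glucosinolates, at 27.2, 111 and 51.3. *GSTF6*, a glutathione transferase with a close copy, stood at 60.7, 845 and 526. Of the 10 genes with at least 10 counts in each library, 9 ranged at least 2-fold and all 9 were lowest in library 1. The highest library differed within the list. *CYP82C2*, which hydroxylates the cyanogenic product, had 6, 530 and 15 counts, whereas *PAD3*, which makes camalexin, stood at 7.2, 17.1 and 120 nuclear RPM. Genes of the salicylic acid branch had low levels: *PR1*, the usual marker of that branch, had 10, 78 and 1 counts. Of the 5 genes of the defence list with at least 10 counts in each library, *PAD3* included, 4 ranged at least 2-fold and 3 of these were highest in library 2.

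Aliphatic glucosinolate genes, also listed afterwards, were nearly level, and none of the 8 ranged 2-fold. *MAM1*, which elongates methionine, stood at 358, 313 and 380 nuclear RPM, and *CYP83A1* at 142, 115 and 163. Flavonoid genes were low. *TT4*, the chalcone synthase, stood at 6.7, 1.7 and 20.4 nuclear RPM, and *F3H* had no count in any library.

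Of 11 jasmonate, touch and wound genes, 9 ranged at least 2-fold, 8 of them lowest in library 1 and 7 highest in library 3. *LOX2*, a chloroplast lipoxygenase of jasmonate synthesis, stood at 417, 348 and 1092 nuclear RPM, and *VSP2*, a jasmonate-induced storage protein of leaves, at 18.19, 35.2 and 152. *RHL41* (ZAT12), a zinc-finger factor that answers many stresses, stood at 9.0, 29.0 and 147. *TCH3*, a calmodulin-like gene raised by touch, was nearly level at 210, 230 and 201.

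Genes of the abscisic acid response differed in range. *LTI65* (RD29B), a desiccation protein, stood at 19.98, 4.1 and 59.3 nuclear RPM, and the phosphatase genes *HAI1* and *HAI2* stood at 29.2, 9.0 and 112 and at 19.5, 4.3 and 45.8. Of 10 genes, 6 ranged at least 2-fold, all highest in library 3 and 5 lowest in library 2. This list too was chosen after the ranges were seen. In the cold list, *LTI78* (RD29A), *COR15A* and *KIN1* were highest in library 3, while *COR47*, a dehydrin, stayed at 1106, 930 and 1014.

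Iron deficiency genes went the other way in library 2. The transcription factor genes *BHLH100*, *BHLH101* and *bHLH38*, which rise when leaves and roots lack iron, stood at 6.9, 62.2 and 6.9, at 11.02, 59.7 and 7.4, and at 3.1, 26.6 and 5.6 nuclear RPM. *FRO3*, an iron reductase of mitochondria, stood at 48.7, 132 and 31.7, and *OPT3*, a phloem transporter of iron, at 123, 213 and 97.3. These genes were highest in library 2, whereas *FER1*, a ferritin that stores iron, was lowest there at 210, 61.8 and 538. The root genes *IRT1* and *FRO2*, which take up iron, had 6, 26 and 6 and 4, 15 and 6 counts. Of the 8 genes of this afterwards chosen list with at least 10 counts in each library, 6 ranged at least 2-fold, and 5 of these were highest in library 2 (4 by the whole-library total).

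**Figure D5:**
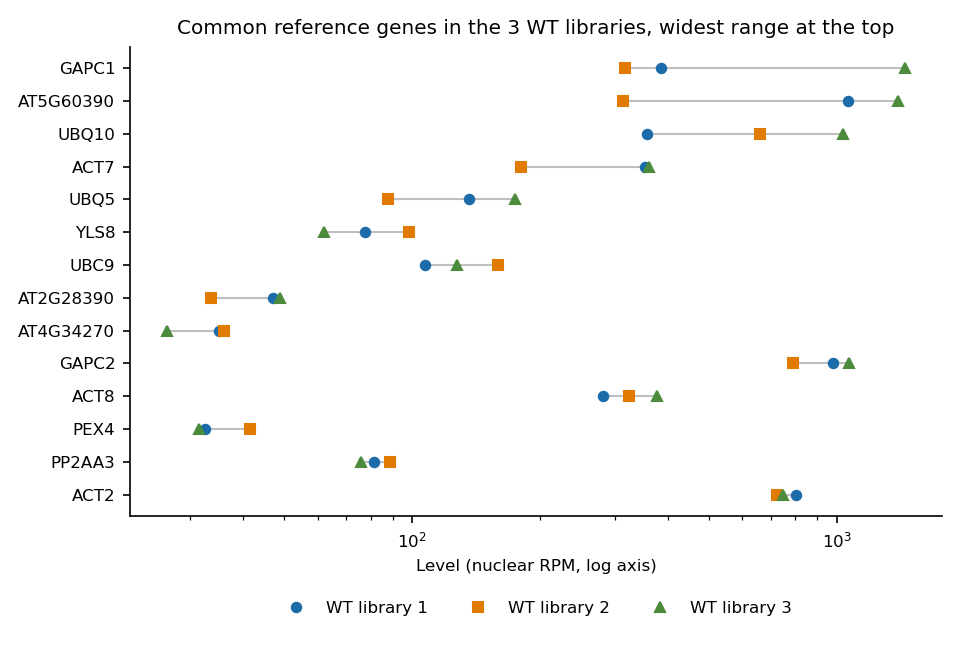
Nuclear RPM (log axis) of 14 genes often used as references in the WT libraries, ordered from the widest range at the top. *GAPC1* ranges from 318 to 1449 and *ACT2* from 723 to 803.

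Genes often used as references for expression differed in how level they were. *ACT2* stood at 803, 723 and 749 nuclear RPM, a ratio of 1.11, and *PP2AA3*, a phosphatase subunit, at 81.5, 88.5 and 75.7. *GAPC1*, a cytosolic glyceraldehyde-3-phosphate dehydrogenase, stood at 385, 318 and 1449, and *UBQ10*, a polyubiquitin gene, at 357, 660 and 1036. AT5G60390, an elongation factor gene with close copies, stood at 1062, 314 and 1396. With *ACT7* at 354, 180 and 362, 4 of 14 ranged at least 2-fold on the nuclear total, and 5 of 14 after TMM scaling. The most level genes of at least 100 nuclear RPM, chosen by that value, included AT4G02580, a subunit of mitochondrial complex I, at 110.4, 110.9 and 111.4, and *TUA2*, an alpha-tubulin, at 159.6, 157.1 and 160.3.

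Among the 48 genes at least 2-fold above both others in library 1, *CRA1* had the widest range. *NIA1*, the minor nitrate reductase, was highest in library 1 without belonging to them, at 781, 386 and 437 nuclear RPM.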

How the data were processed

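The 3 WT libraries were taken by the genotype given in the labels, and the mutant libraries were not used here. The authors trimmed paired-end reads of polyA RNA libraries with Trim Galore, aligned them with STAR 2.5.3a to TAIR10 and counted uniquely mapped reads per Araport11 gene. The deposited values are these raw counts, without normalization. Which strand column of the counter was deposited is not given in the sources used here. No unit other than counts was used, and no per-sample column was left out.

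Nuclear totals were 3903368, 5308806 and 3780230 counts in libraries 1, 2 and 3. Levels were scaled to 1000000 counts within nuclear, chloroplast and mitochondrial genes apart, and divided by the exon length of the RefSeq annotation of TAIR10.1, in which all 37051 nuclear genes were found, to compare genes. Positions, products and promoter sequences (250 bases before to 50 after the start) are from RefSeq on that build. Of 343 list identifiers, 327 carried the listed name as a symbol or synonym. Ranges between libraries used genes with at least 10 counts in each library. As there is a single group, no comparison between groups was tested. Dispersion was estimated with edgeR 4.0.16 on an intercept, after the procedure was tested on simulated data. TMM, upper quartile, DESeq2 1.42.0 size factors, the whole-library total, other count minimums and leaving out each library were tried as alternatives (R 4.3.3, Python 3.11.15, pandas 2.3.3, numpy 2.4.6, matplotlib 3.10.9). Close or near-identical copies were sought as at least 90% identity over 50% of the spliced length, and 45 of 524 genes searched had one.

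Genes were named by this rule: the 20 highest nuclear genes per kb of exon and in nuclear RPM, the highest organelle genes, the leading members of each list and its defining members at 0, the 20 widest ranges among genes with a mean of at least 20 nuclear RPM, list members with a 2-fold range, the most level genes of at least 100 nuclear RPM, and common reference genes. Genes outside it were chosen after their values were seen. The members and lists were chosen with earlier results of these data known, and 6 of the 29 lists (mitochondrial retrograde, indolic defence, abscisic acid response, iron deficiency, flavonoid, aliphatic glucosinolate) were added after the most variable genes were seen.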

Additional observations from a re-analysis of the deposited data

How the results depend on the processing

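No paired analysis was possible because only 1 group was described. Among 122 alternative values computed, those of the main results moved in 13 cases and stayed the same in 20. The other 89 were values of side results, of which 0 moved. A share or summed level was called moved when it changed by its SD over the libraries or more. A count was called moved when it changed beyond a set ratio. For the same genes, a mean over 3 libraries cannot change by that SD when 1 library is left out. The label therefore carries no information there. The mitochondrial dysfunction list, for example, fell from 1645 to 400 nuclear RPM without library 3 and was not called moved. Only the ranges of the 20 widest genes could be called reversed, by a change of the highest library, and 0 were. As these genes were chosen for wide ranges, that outcome was close to fixed beforehand. The 100 highest genes held 20.8% of nuclear counts, 28.8% per kb of exon and 18.21% without rRNA, and photosystem and antenna genes held 8.42%, 11.2% per kb of exon and 3.23% of all counts. Of 35 floral and pollen genes, 5 reached 3 counts in each library and 1 reached 10. The 2736 genes with a 2-fold range became 1421 with at least 30 counts and 548 with at least 100 counts in each library, the last chosen after seeing the data, since fewer genes are tested and counting noise is smaller. Other scalings gave 2657 to 2912, and TMM and the whole-library total gave 409 and 472 genes with a 4-fold range against 399.

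Leaving out each library in turn gave 1811, 1147 and 1375 genes with a 2-fold range without library 1, 2 and 3, and 252, 187 and 184 with a 4-fold range, as a range over fewer libraries is narrower. The chloroplast share then ranged from 58.6% to 62.1%, the share of the 100 highest genes from 19.6% to 21.8%, that of the photosystem class from 7.89% to 8.84%, and the floral and pollen genes detected from 5 to 7.

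With 3 libraries of a single group, differences between plants, harvests and library preparation cannot be told apart. Genes near the floor of 3 counts are imprecise, as are near-identical copies and genes that overlap on opposite strands. Chloroplast reads left between 3780230 and 5308806 counts for nuclear genes.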
